A study of Mus musculus with 14 samples.

Results

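Transcript levels of 9 transcription factor genes that act in the development of innate lymphoid cells were examined in immature natural killer cells and immature type 1 innate lymphoid cells of mouse bone marrow. The genes are Rora, Gata3, Ahr, Bcl11b, Tcf7, Id2, Id3, Zbtb16 and Tox. They were found by matching the Ensembl identifiers of the count table to gene symbols, and all 9 were present among the 46078 genes listed. Each of the 9 passed the filter on low counts that left 26990 genes for testing. Bulk RNA-seq libraries were made from 2000 sorted cells each, from C57BL/6 mice 8 weeks old. Immature NK cells (iNK) were sorted as NK1.1+ DX5+ CD27+ cells without CD3, IL-7Ra or CD11b. Immature ILC1s (iILC1) were sorted as NK1.1+ CD49a+ IL-7Ra+ cells without CD3. Control mice had the genotype Il-15-flox/KO, that is, a floxed and a knockout allele of the gene for interleukin 15, and the conditional knockouts (cKO) had the genotype Vav-Cre;Il-15-flox/KO. The Vav promoter drives Cre throughout the blood system, so cells outside it keep the floxed allele, and no group carried a wild-type pair of Il15 alleles. Both control groups had 3 libraries and both cKO groups 4. Where the values of all 4 groups follow each other, their order is iNK of controls, iNK of cKO, iILC1 of controls and iILC1 of cKO.

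Innate lymphoid cells and NK cells arise from lymphoid progenitors that shut off the B and T cell fates step by step. ID2, and to a lesser extent ID3, are small proteins without a DNA-binding domain that bind E proteins such as TCF3 (E2A) and keep them off DNA. TCF7 (TCF-1), TOX, GATA3 and ZBTB16 (PLZF) mark successive progenitor stages, and ZBTB16 is best known for a transient peak in a precursor of ILCs. RORA, BCL11B and AHR are used later: RORA and BCL11B are known for group 2 ILCs, and AHR, a receptor for plant and microbial ligands, maintains ILC3s and some tissue-resident ILC1s. In NK cells, IL-15 is the main survival and maturation cytokine.

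Total counts ranged from 3512796 to 12572326 reads per library, and control iILC1 libraries were the shallowest (3512796 to 4933284). Levels are TMM-normalised CPM, which scale the read counts for library size and composition. Olfactory and vomeronasal receptor genes (1318 genes), which lymphocytes should not use, served as a measure of background reads and summed to between 1358 CPM in control iNK replicate 1 and 2988 CPM in control iILC1 replicate 2. The targeted gene, Il15, averaged 9.85 ± 1.52, 10.6 ± 1.55, 12.9 ± 1.07 and 18.02 ± 5.62 CPM (SD) in the 4 groups, so it was not lower in cKO, and its mean was higher in cKO iILC1. The count covers the whole gene and does not resolve the floxed part, so it does not check the deletion. The sort labels were set beside markers. Of 8 ILC1 marker genes, 7 were higher in control iILC1 than in control iNK and 8 in the cKO pair, and 5 of 9 NK markers were lower in iILC1 in either genotype, among them Eomes, the T-box factor of NK cells. In cKO mice 1 NK marker was higher in iILC1. Of all genes tested, 0.945% were called higher and 3.16% lower in control iILC1, and 1.75% and 1.66% in cKO iILC1. The ILC1 list holds the genes of IL-7Ra and CD49a, and the NK list those of DX5, CD11b and NK1.1. These are proteins of the sort gates, so their genes are no independent check of the labels. The other markers of both lists encode no protein named in the gates. No marker of either list was at 0 in any group. Whether the samples within a group are from separate mice is not in the labels, so the p-values reflect no more than the spread among these samples, which may be technical.

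Levels of different genes were compared per kilobase of exon, since longer genes collect more reads. Id2 stood highest in every group and Tcf7 next. Id2 averaged 846 ± 153 CPM per kb (SD, n = 3) in control iNK, 503 ± 81.9 (SD, n = 4) in cKO iNK, 861 ± 193 (SD, n = 3) in control iILC1 and 1236 ± 408 (SD, n = 4) in cKO iILC1. Tcf7 averaged 229 ± 76.8, 346 ± 60.3, 138 ± 36.8 and 166 ± 35.7 CPM per kb in the same order. Their ranges were apart in 3 groups and touched in cKO iNK, where the lowest Id2 library (407 CPM per kb) lay under the highest Tcf7 library (410.4 CPM per kb). Gata3 took the third place in every group, at 18.4 to 29.4 CPM per kb as group means. Below it the order changed with the cell type. In control iNK, Tox followed (11.8 ± 2.27 CPM per kb, SD, n = 3), then Zbtb16 (6.00 ± 0.434), Rora (3.79 ± 0.621), Ahr (3.33 ± 0.450), Id3 (2.43 ± 0.921) and Bcl11b (1.14 ± 0.0684), where Rora overlapped Ahr and Ahr overlapped Id3. In control iILC1, Rora took the fourth place (10.3 ± 1.91 CPM per kb, SD, n = 3), ahead of Ahr (9.06 ± 1.04), Tox (8.64 ± 0.172), Zbtb16 (5.83 ± 1.42), Bcl11b (4.67 ± 1.42) and Id3 (2.57 ± 0.750). Rora and Ahr overlapped there, as did Ahr and Tox, Zbtb16 and Bcl11b, and Bcl11b and Id3. In cKO iNK, Id3 took the fifth place, at 12.1 ± 3.80 CPM per kb (SD, n = 4), and overlapped Tox above it and Zbtb16 below it. In cKO iILC1, Rora took the fourth place, at 22.1 ± 5.20 CPM per kb (SD, n = 4), and overlapped Gata3.

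**Figure D1:**
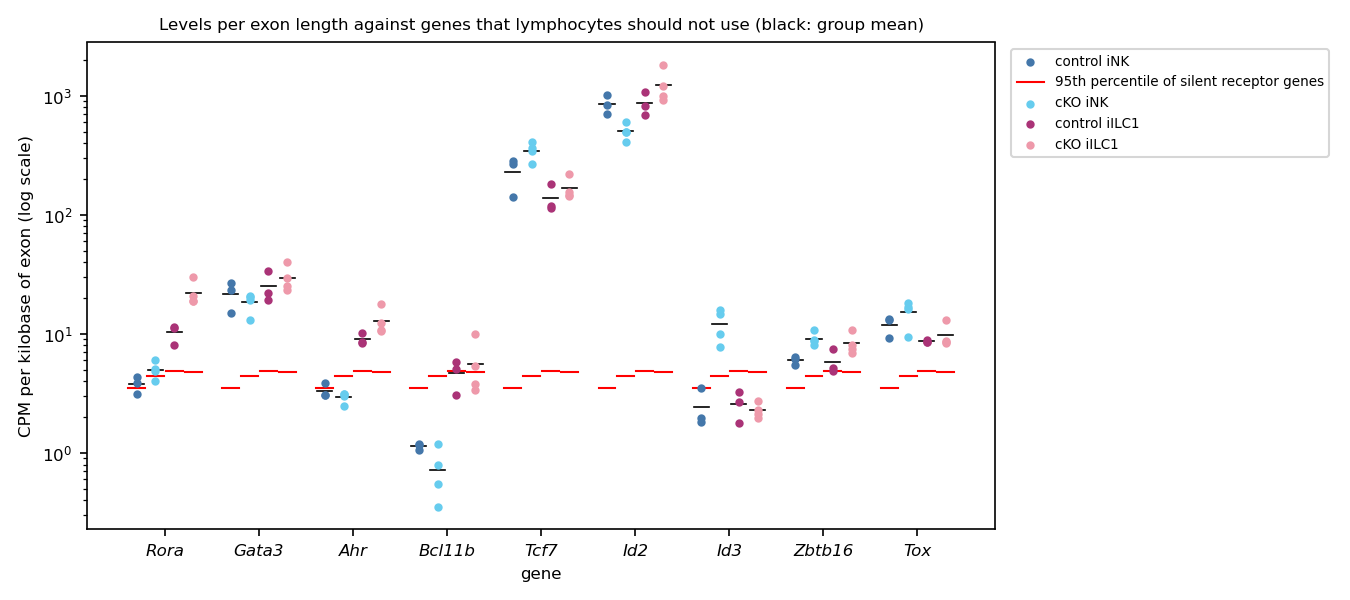
Level of each gene in each library, in CPM per kilobase of exon on a log scale (points: libraries; black lines: group means; red lines: 95th percentile of the 1318 silent receptor genes in that group). Id2 and Tcf7 lie above the other genes in every group, and Bcl11b in iNK and Id3 outside cKO iNK lie under the red line.

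The 95th percentile of the silent receptor genes was 3.54 CPM per kb in control iNK, 4.43 in cKO iNK, 4.84 in control iILC1 and 4.79 in cKO iILC1. Group means of Id3 were under it in control iNK, control iILC1 (2.57 CPM per kb) and cKO iILC1 (2.29 CPM per kb), and above it in cKO iNK. Bcl11b was under it in both iNK groups (1.14 and 0.718 CPM per kb) and in control iILC1. Ahr was under it in both iNK groups (3.33 and 2.93 CPM per kb). A level under this percentile cannot by itself be told apart from background reads, and it does not show that transcription is absent. The median of the silent receptor genes was 0.761, 0.766, 1.23 and 0.956 CPM per kb in the 4 groups. Bcl11b, under the percentile as a mean in both control groups, still did not overlap between them. Id2, Tcf7, Gata3, Tox and Zbtb16 were above the 95th percentile in every group.

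The genotype comparisons set mice labelled as carrying Vav-Cre against mice without it, within a cell type. In iNK cells, Id3 rose in cKO and the other 8 genes did not pass edgeR's quasi-likelihood test with Benjamini-Hochberg adjustment over all genes at 0.05. The call of 1 of 9 stands beside 0.408% of all genes tested (0.148% higher and 0.259% lower). The libraries of both genotypes did not overlap for Id3 and Zbtb16, which were higher in cKO, and Id2, which was lower, 3 of 9 genes against 8.84% of all genes (4.09% higher, 4.75% lower). In iILC1 cells none of the 9 passed edgeR's adjusted threshold, where 0.0482% of all genes did (0.0222% higher, 0.0259% lower). There, 3 of 9 had an unadjusted p under 0.05, against 4.46% of all genes, and DESeq2 called 1 (Rora), against 0.17%. In iNK, 4 of 9 had such a p, against 7.93%, and DESeq2 called 1 (Id3), against 1.09%. The iILC1 libraries did not overlap for Rora and Ahr, both higher in cKO, 2 of 9 against 5.48% of all genes (2.66% higher, 2.82% lower). Estimates in iILC1 were above 0 for 8 of the 9 genes, with a median log2 fold change of 0.27 against 0.01 over all genes. In iNK the median was 0.36 against 0.06.

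**Figure D2:**
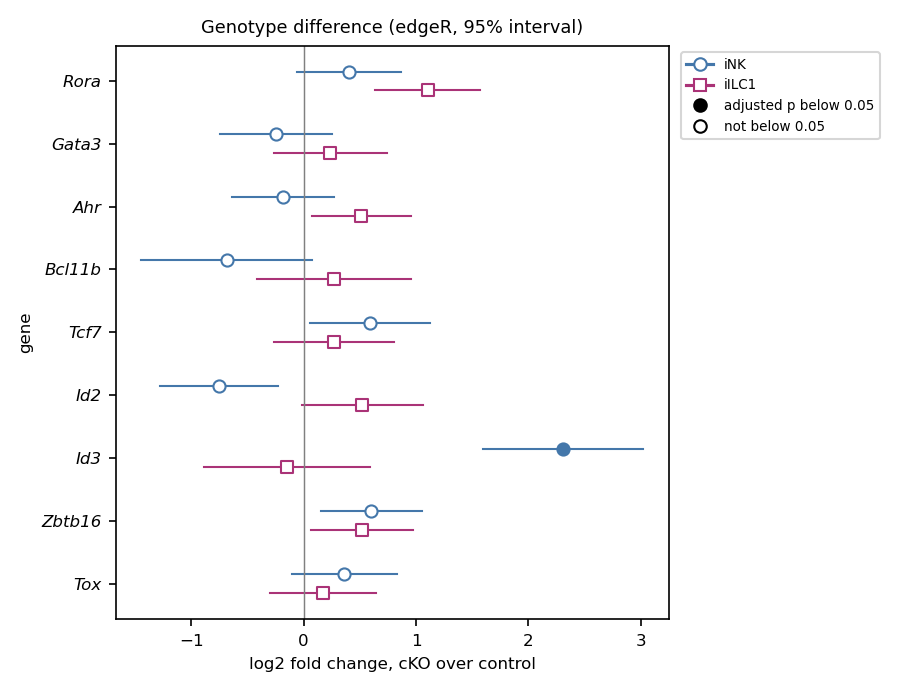
Log2 fold change of each gene in cKO over control, in iNK (circles) and iILC1 (squares), with 95% intervals from edgeR. The filled symbol marks Id3 in iNK (2.31), the only gene with an adjusted p under 0.05, and Rora in iILC1 (1.10) is next in size.

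The cell type comparisons set iILC1 against iNK within a genotype. Rora, Ahr and Bcl11b were higher in iILC1 in control mice, and they were also higher in cKO mice, where Id2 was higher and Tcf7 and Id3 were lower as well. In control mice 3 of 9 genes were called, beside 4.11% of all genes (0.945% higher, 3.16% lower). In cKO mice 6 of 9 were called, beside 3.41% (1.75% higher, 1.66% lower). Libraries of the 2 cell types did not overlap for 4 of 9 genes in control mice (25% of all genes, 12% higher and 13% lower) and for 7 of 9 in cKO mice (6.61%, 3.52% higher and 3.08% lower). The difference between the genotype effects in the 2 cell types, the interaction, was called for Id3 alone, 1 of 9, beside 0.0778% of all genes (0.0222% higher, 0.0556% lower). The comparisons share libraries, so their values are given side by side only.

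**Figure D3:**
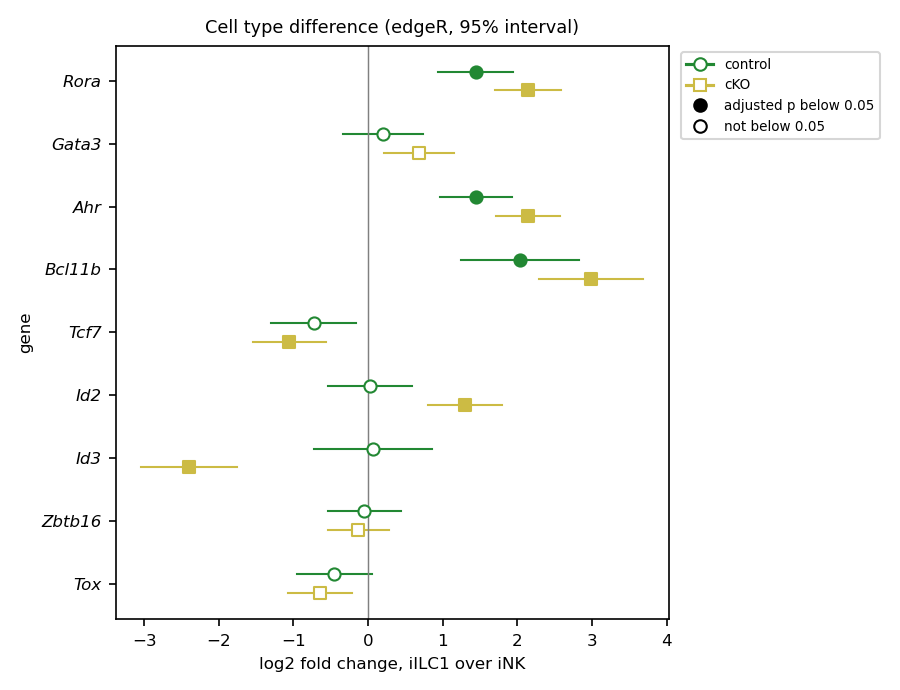
Log2 fold change of each gene in iILC1 over iNK, in control (circles) and cKO mice (squares), with 95% intervals from edgeR; filled symbols have an adjusted p under 0.05. Rora, Ahr and Bcl11b lie to the right of 0 in both genotypes, and Id2 and Id3 lie near 0 in control mice and at 1.30 and −2.40 in cKO mice.

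Id3 (ENSMUSG00000007872; mm10 chromosome 4, 136143497 to 136145755, plus strand) and Id2 (ENSMUSG00000020644; chromosome 12, 25093801 to 25096092, minus strand) encode the E protein inhibitors. Id3 read 6.25, 3.27 and 3.52 CPM in control iNK and 26.3, 14.0, 17.8 and 28.3 CPM in cKO iNK. It read 5.85, 3.18 and 4.76 CPM in control iILC1 and 4.12, 3.55, 4.93 and 3.81 CPM in cKO iILC1. All 4 cKO iNK libraries lay above the 10 others, which overlapped each other. Behind these levels stood 16 to 40 reads per library outside cKO iNK and 101 to 332 in it. The mean in iNK was 4.35 ± 1.65 CPM (SD, n = 3) in controls and 21.6 ± 6.80 CPM (SD, n = 4) in cKO, which gave a log2 fold change of 2.31 (SE 0.351, edgeR adjusted p = 0.000291), and the call held in all 16 alternatives run. In iILC1 the estimate was −0.15 (95% interval −0.89 to 0.59; adjusted p = 0.985). The interaction was −2.46 (SE 0.498, edgeR adjusted p = 0.0375), and its adjusted p ran from 0.0581 to 0.177 in the 8 of 14 fits that left out 1 library and lost the call. Those libraries were control iNK replicates 2 and 3, cKO iNK replicates 1, 3 and 4, control iILC1 replicates 1 and 3, and cKO iILC1 replicate 2. Between cell types, Id3 was lower in cKO iILC1 than in cKO iNK by a log2 fold change of −2.40 (SE 0.313, edgeR adjusted p = 2.35e-06), while in control mice the estimate was 0.06 (95% interval −0.73 to 0.85).

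**Figure D4:**
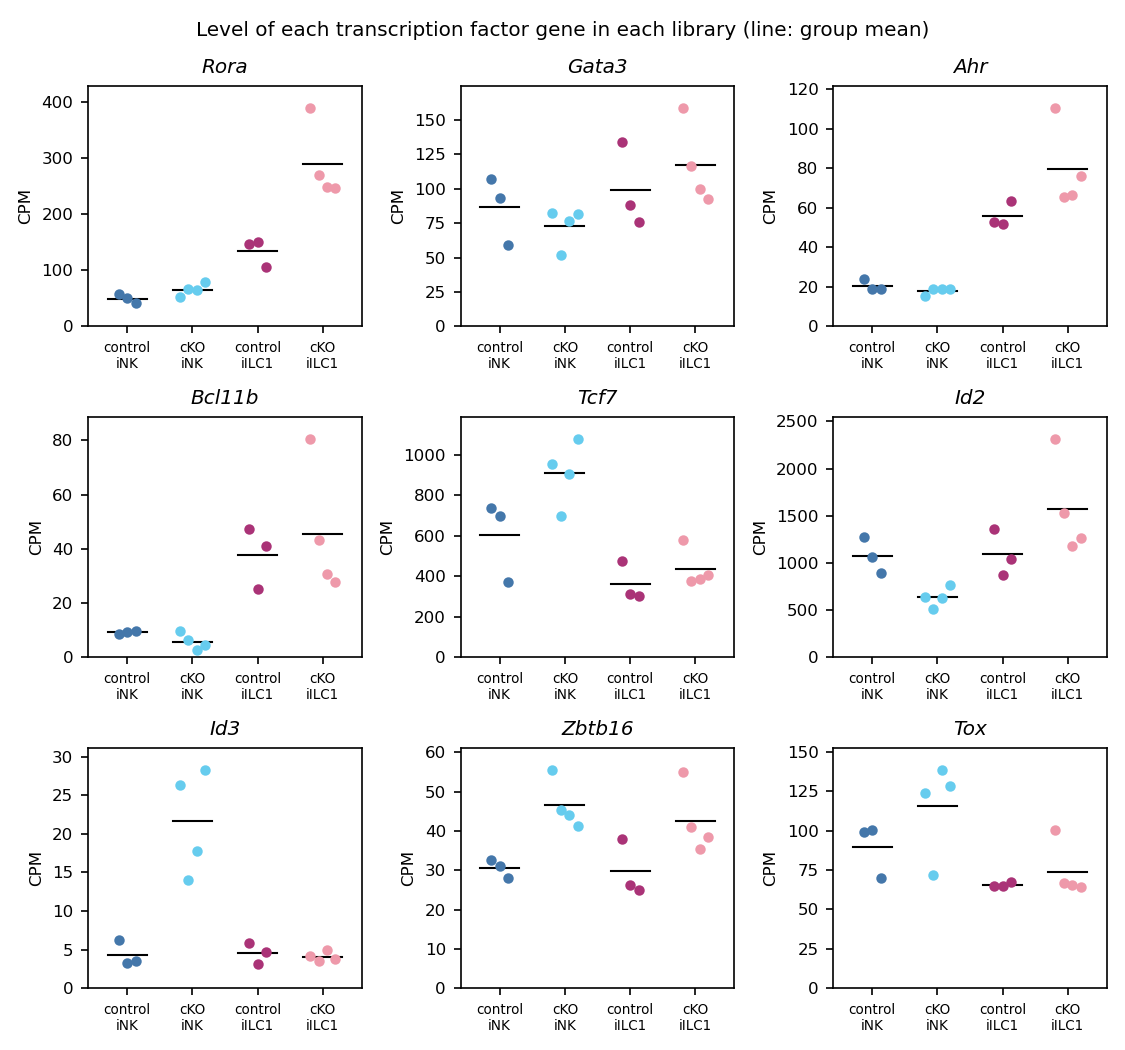
Level of each of the 9 genes in every library, in CPM on an axis that starts at 0 (points: libraries; lines: group means). Id3 is high in the 4 cKO iNK libraries alone, Id2 is lowest there, and Rora climbs from iNK to control iILC1 to cKO iILC1.

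Id2 moved the other way in iNK cells, short of the threshold. It read 1278, 1058 and 889.6 CPM in control iNK and 635, 516, 632 and 771 CPM in cKO iNK. It read 1359, 876 and 1045 CPM in control iILC1 and 2314, 1525, 1175 and 1265 CPM in cKO iILC1. Every cKO iNK library was below every other library of the study, while the iILC1 genotypes overlapped. The genotype estimate in iNK was −0.75 (SE 0.258, edgeR adjusted p = 0.347), and in iILC1 it was 0.52 (SE 0.263, adjusted p = 0.982). In cKO mice Id2 was higher in iILC1 than in iNK, at a log2 fold change of 1.30 (SE 0.244, edgeR adjusted p = 0.000679). In control mice the estimate was 0.02 (95% interval −0.54 to 0.59), or 0.52 (adjusted p = 0.0538) with the background sum as a covariate. The interaction of 1.27 (SE 0.369, unadjusted p = 0.00162, edgeR adjusted p = 0.438) did not pass. With that covariate, Id2 was called in iNK (−0.56, adjusted p = 0.0135) and in the interaction (0.89, adjusted p = 0.0281), and the filter at 5 CPM also called it in iNK (adjusted p = 0.0432).

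The balance of both ID genes within a library needs no scaling between libraries. Per 100 Id2 reads there were 0.489, 0.310 and 0.396 Id3 reads in control iNK and 4.14, 2.71, 2.82 and 3.67 in cKO iNK. In control iILC1 there were 0.431, 0.363 and 0.456, and in cKO iILC1 0.178, 0.233, 0.420 and 0.301. The lowest cKO iNK library had 2.71 Id3 reads per 100 Id2 reads, and the highest of the other libraries 0.489. This gap follows from the levels above, where Id3 was highest and Id2 lowest in cKO iNK, so it is no separate result. Outside cKO iNK the ratio rests on 16 to 40 Id3 reads per library, at levels under the 95th percentile of the silent receptor genes. As a share of the reads of both genes, Id3 held 2.64% in cKO iNK replicate 2 (exact Clopper-Pearson 95% interval 2.16 to 3.20%) and 0.487% in control iNK replicate 1 (0.348 to 0.662%). These intervals cover counting error only.

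B-lineage transcripts moved together with Id3. Of 11 B cell markers, 7 rose in cKO iNK against control iNK, among them Cd79b and Cd79a, the signalling chains of the B cell receptor (log2 fold changes 2.66 and 3.59, edgeR adjusted p = 7.67e-07 and 0.00122), and Fcmr, a receptor for IgM (3.85, adjusted p = 1.25e-05). For this comparison edgeR called 0.408% of all genes, 0.148% higher and 0.259% lower. Cd79a averaged 3.02, 36.6, 3.23 and 3.91 CPM in the 4 groups. Genes of MHC class II, which B cells and dendritic cells use, were higher as well: H2-Aa, H2-Ab1 and H2-Eb1, 3 of 9 dendritic cell markers, rose in cKO iNK (3.47, 3.06 and 2.77). These 3 were also higher in control iILC1 than in control iNK (2.78, 2.43 and 1.99, edgeR adjusted p = 4.7e-07, 7.5e-07 and 2.3e-05), where the Id3 estimate was 0.06. In cKO mice H2-Aa was higher in iILC1 (0.81, adjusted p = 0.0382, lost in 5 of 17 alternatives), where Id3 was lower. Itgax, of the same 9 markers, was lower in control iILC1 (−1.11, edgeR adjusted p = 0.02165, lost in 5 of 15 alternatives). It was lower in cKO iILC1 as well (−1.57, edgeR adjusted p = 6.82e-05). Of all genes tested, edgeR called 0.945% higher and 3.16% lower in control iILC1, and 1.75% and 1.66% in cKO iILC1. The summed level of the 11 B cell markers was 411 to 619 CPM in control iNK, 680.1 to 1079 CPM in cKO iNK, 364 to 486 CPM in control iILC1 and 431 to 685 CPM in cKO iILC1, and no listed marker was at 0 in any group. Ighm held the largest part of these sums, with means of 458, 634, 310 and 442 CPM in the 4 groups. Erythroid markers were higher in the same libraries: 8 of them summed to 11.6 to 50.3 CPM in control iNK and 85.6 to 604 CPM in cKO iNK, without overlap, and to 36.0 to 194 and 18.2 to 260.1 CPM in the iILC1 groups, with none at 0 in any group. For genotype in iNK, edgeR called none of these 8, 5 had an unadjusted p under 0.05, and DESeq2 called 1 (Hbb-bs, a globin gene). The shares over all genes were 7.93% for that unadjusted p and 1.09% for DESeq2. None of the 11 B cell markers was called for genotype in iILC1 by edgeR, which gave none an unadjusted p under 0.05, or by DESeq2. These shares over all genes were 0.0482%, 4.46% and 0.17%. The interaction test was passed by 3 of the 11, among them Cd79b and Fcmr (−2.30 and −3.94), beside 0.0778% of all genes (0.0556% lower). Over the 14 libraries, Cd79b was the gene whose log2 CPM followed that of Id3 most closely (Pearson r = 0.946), with Pls1, which encodes the actin-bundling protein plastin 1, next (r = 0.931). Id3 is itself used by B cells, and in bulk samples a change in the share of cells of a type and a change in RNA per cell cannot be told apart. The part of B-lineage or erythroid RNA in the Id3 difference was not tested.

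**Figure D5:**
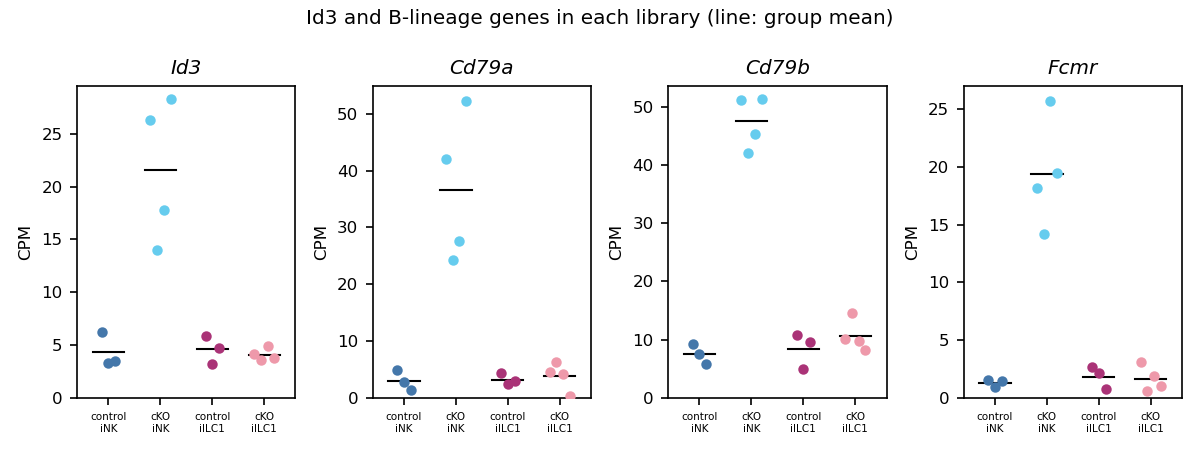
Levels of Id3 and 3 B-lineage genes in each library, in CPM on axes that start at 0 (points: libraries; lines: group means). The 4 cKO iNK libraries lie above the other 10 in each panel.

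The proximal promoters of the ID genes are shown because Id2 and Id3 differed in direction in cKO iNK. The sequences are RefSeq's, on GRCm38.p6, 5′ to 3′ in the gene's direction, and end at the base before the start site. RefSeq's start of Id3 lies inside the gene span of the count table, so 30 bases are given for it. Capitals mark a match to any of 8 short motifs searched on both strands: TTCNNNGAA (STAT), CAGCTG and CAGGTG (E-boxes, bound by E proteins), CTTTGA (TCF/LEF), GCGTG (AHR), AGGTCA (ROR), TGTGGT (RUNX) and AGGTGTGA (T-box).
Id2, chr12:25096093-25096342, minus strand: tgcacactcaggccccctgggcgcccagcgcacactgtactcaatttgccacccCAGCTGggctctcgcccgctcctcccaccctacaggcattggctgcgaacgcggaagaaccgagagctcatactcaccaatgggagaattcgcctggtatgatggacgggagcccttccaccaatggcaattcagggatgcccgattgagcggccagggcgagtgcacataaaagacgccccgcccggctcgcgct
Id3, chr4:136143792-136143821, plus strand: ctataagagtcggccgctgcagGCGTGcgc
In the 250 bases before the start, Id2 held a single match, the E-box CAGCTG, whose first base lay 196 bases before the start. CAGCTG was present in 13% of 32851 promoter windows of that length. Id3 held a single match in its 250 bases, GCGTG, 8 bases before the start, a motif found in 28.2% of windows. Neither window held the STAT motif, which 7.02% of windows did. A match describes the letters and not a bound site.

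E proteins, the partners of ID2 and ID3, and the other ID genes formed a list of 5, of which 4 passed the filter. None of these 4 was called for genotype in either cell type by edgeR or by DESeq2, with 1 unadjusted edgeR p under 0.05 in iNK and 0 in iILC1. Such p-values made up 7.93% and 4.46% over all genes. Tcf3, which encodes E2A, was lower in iILC1 than in iNK in control mice, with a mean of 111 ± 14.5 CPM against 221 ± 48.2 CPM (SD, n = 3 each) and a log2 fold change of −0.996 (SE 0.250, edgeR adjusted p = 0.0181). Tcf3 missed the threshold when control iNK replicate 1 or 2 or control iILC1 replicate 2 or 3 was left out, and with the background covariate (adjusted p 0.0572 to 0.138). In cKO mice the estimate for Tcf3 was −0.72 (adjusted p = 0.0568), which DESeq2 called.

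Tcf7, Tox, Gata3 and Zbtb16 are the factors of early progenitor stages. None of them was called by genotype in either cell type by edgeR or DESeq2. Tcf7 (ENSMUSG00000000782; chromosome 11, 52252371 to 52283014, minus strand), an effector of Wnt signals that Notch induces in early T cells, read 736, 698 and 369 CPM in control iNK and 953, 697, 903 and 1077 CPM in cKO iNK. It read 474, 313 and 301 CPM in control iILC1 and 576, 377, 388 and 406 CPM in cKO iILC1. The cKO libraries of the 2 cell types were apart, and the genotypes overlapped in both. Tcf7 was lower in cKO iILC1 than in cKO iNK by a log2 fold change of −1.05 (SE 0.242, edgeR adjusted p = 0.00663). In control mice the estimate was −0.73 (SE 0.279, adjusted p = 0.135), and it passed with DESeq2 (adjusted p = 0.0421) and without control iNK replicate 3 (−0.99, adjusted p = 0.0297), while the background covariate brought it to −0.14 (adjusted p = 0.847). That replicate, at 369 CPM, was the only iNK library under 600 CPM. It was the lowest of its group for 7 of the 9 genes and had the most background reads of that group (2435 CPM). The genotype estimate of Tcf7 in iNK was 0.59 (adjusted p = 0.571), or 0.85 (adjusted p = 0.000275) with the background covariate. Reads of Gm26551, a predicted gene within Tcf7 on the same strand (28.8 CPM on average), shared no exonic base with it.

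Zbtb16 (ENSMUSG00000066687; chromosome 9, 48654311 to 48835945, minus strand) was higher on average in cKO than in control in both cell types. It read 32.5, 31.1 and 28.1 CPM in control iNK and 55.5, 45.3, 44.1 and 41.2 CPM in cKO iNK, without overlap. It read 38.0, 26.2 and 24.9 CPM in control iILC1 and 54.9, 41.0, 35.3 and 38.4 CPM in cKO iILC1, where control replicate 1 lay among the cKO libraries. The estimates were 0.60 (SE 0.220, edgeR adjusted p = 0.415) in iNK and 0.52 (SE 0.223, adjusted p = 0.982) in iILC1, and the interaction was −0.08 (95% interval −0.71 to 0.55). The filter at 5 CPM and the background covariate called it in iNK (adjusted p = 0.0385 and 0.0175). Between cell types, the estimates were −0.05 (95% interval −0.53 to 0.44) in control and −0.13 (95% interval −0.54 to 0.27) in cKO mice, the closest to 0 of the 9 genes in cKO mice.

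Tox (ENSMUSG00000041272; chromosome 4, 6686353 to 6991557, minus strand) encodes a high-mobility-group protein needed for early NK and ILC development. It read 99.2, 100.5 and 69.9 CPM in control iNK and 124, 71.8, 139 and 128 CPM in cKO iNK. It read 64.9, 65.0 and 67.2 CPM in control iILC1 and 100.2, 66.5, 65.7 and 63.9 CPM in cKO iILC1. All control iILC1 libraries were below all control iNK libraries, by a small gap, and cKO iILC1 replicate 1 stood apart from the other 3 of its group. Tox was lower in iILC1 on average, with estimates of −0.45 (SE 0.247, edgeR adjusted p = 0.293) in control and −0.64 (SE 0.212, adjusted p = 0.111) in cKO mice. The background covariate brought the former to −0.040 (adjusted p = 0.983). Without cKO iILC1 replicate 1 the latter passed (−0.78, adjusted p = 0.00838), and so it did without cKO iNK replicate 2 (−0.78, adjusted p = 0.0128). The estimate in cKO mice also passed with the filter at 5 CPM (adjusted p = 0.00969), the background covariate (−0.54, 0.0160) and the replicate block (0.0396). It passed without both control iNK replicate 1 and cKO iILC1 replicate 1 as well (−0.83, 0.00981), in all in 6 of 17 alternatives. Tox shares 260 exonic bases with the antisense gene Gm11802 (0.615 CPM), and the library kit does not mark the strand.

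Gata3 (ENSMUSG00000015619; chromosome 2, 9857078 to 9890034, minus strand), a zinc-finger factor needed by all ILCs that express IL-7Ra, overlapped between most groups. It read 107, 93.7 and 59.3 CPM in control iNK and 82.3, 51.9, 76.4 and 81.6 CPM in cKO iNK. It read 134, 88.0 and 76.2 CPM in control iILC1 and 159, 117, 100.2 and 92.4 CPM in cKO iILC1. The cKO cell types did not overlap, and all other pairs of groups did. In cKO mice the iILC1 estimate was 0.68 (SE 0.227, edgeR adjusted p = 0.119), and it passed in a fit of those groups alone (adjusted p = 0.0253) and without cKO iILC1 replicate 4 (0.79, adjusted p = 0.0405). The same estimate passed with the background covariate (0.83, adjusted p = 3.51e-05), the filter at 5 CPM (0.00669) and the replicate block (0.0272). In all, 5 of 17 alternatives called this estimate. In control mice it was 0.19 (95% interval −0.34 to 0.73), against 0.77 (adjusted p = 0.00728) with the background covariate. Gata3 shares exonic bases with the antisense gene Gm13256 (155 bases) and with 9230102O04Rik (77 bases), both under 1 CPM.

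Rora, Ahr and Bcl11b, the factors of later ILC stages, separated the cell types in both genotypes. Rora (ENSMUSG00000032238; chromosome 9, 68653786 to 69388246, plus strand) encodes an orphan nuclear receptor. It read 56.8, 50.9 and 40.8 CPM in control iNK, 52.2, 66.6, 63.9 and 78.9 CPM in cKO iNK, 147, 150.5 and 106 CPM in control iILC1, and 389, 270.1, 248 and 247 CPM in cKO iILC1. The iILC1 libraries were all above the iNK libraries, and within iILC1 the cKO libraries were all above the controls. Rora was higher in iILC1 by a log2 fold change of 1.44 (SE 0.245, edgeR adjusted p = 0.000341) in control and 2.14 (SE 0.214, adjusted p = 1.18e-08) in cKO mice. For genotype in iILC1, the means were 135 ± 25.0 CPM (SD, n = 3) in controls and 289 ± 67.9 CPM (SD, n = 4) in cKO, and the estimate was 1.10 (SE 0.228, 95% interval 0.64 to 1.57). Its unadjusted p was 3.52e-05 and its edgeR adjusted p 0.0634, so it did not pass. DESeq2 (1.10, adjusted p = 0.00109), the filter at 5 CPM (0.99, adjusted p = 0.00476), the background covariate (0.98, adjusted p = 0.00168) and no filter (1.13, adjusted p = 0.0175) called it. It was also called without cKO iILC1 replicate 1 (0.92, adjusted p = 0.0429), the library at 389 CPM, and without cKO iILC1 replicate 4 (1.13, adjusted p = 0.0261). In all, 7 of 16 alternatives called it, the replicate block among them, and 9 did not. It was not called with RLE scaling (adjusted p = 0.098), only the groups compared (0.0628) or no robust moderation (0.0724). Nor was it without both control iNK replicate 1 and cKO iILC1 replicate 1 (0.0739). Leaving out control iILC1 replicate 1 or 2 gave 0.1455 and 0.173, and cKO iILC1 replicate 2 or 3 gave 0.0744 and 0.0640. Leaving out control iILC1 replicate 3 gave 0.96 with an adjusted p of 0.9999, and over all alternatives the estimate stayed between 0.92 and 1.20. In iNK the estimate was 0.40 (95% interval −0.06 to 0.87), and the interaction of 0.70 (edgeR adjusted p = 0.711) did not pass. In iILC1, H2-Aa, H2-Ab1 and H2-Eb1 were also higher in cKO (edgeR adjusted p = 0.00839, 0.0178 and 0.00556; log2 fold change of H2-Eb1 1.45), the T cell marker Trac was lower (−1.46), and summed dendritic cell markers lay at 348 to 427 CPM in control and 380.5 to 544 CPM in cKO, with no listed marker at 0. Their part in the Rora difference was not tested. Rora shares 82 exonic bases with the antisense gene Gm15511 (1.61 CPM).

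The promoter of Rora is given because the gene was high in iILC1 and above control in every cKO iILC1 library. It is RefSeq's sequence on GRCm38.p6, with capitals as above.
Rora, chr9:68653536-68653785, plus strand: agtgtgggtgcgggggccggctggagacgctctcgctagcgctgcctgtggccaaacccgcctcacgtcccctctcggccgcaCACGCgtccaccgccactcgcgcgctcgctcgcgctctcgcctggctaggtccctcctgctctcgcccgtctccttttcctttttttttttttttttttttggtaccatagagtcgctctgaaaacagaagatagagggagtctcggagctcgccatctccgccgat
The only match in these 250 bases was GCGTG, read here on the other strand as CACGC, 167 bases before the start. It held no ROR motif AGGTCA, which 14% of windows did. Of the 9 genes, 6 were in the RefSeq promoter table.

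Ahr (ENSMUSG00000019256; chromosome 12, 35497974 to 35535038, minus strand) was also higher in iILC1, at lower levels per kilobase than Rora. It read 23.7, 19.0 and 18.9 CPM in control iNK, 15.3, 19.1, 19.1 and 18.7 CPM in cKO iNK, 52.6, 51.7 and 63.2 CPM in control iILC1, and 111, 65.3, 66.5 and 76.3 CPM in cKO iILC1. The cKO iILC1 libraries were all above the control iILC1 libraries, the lowest at 65.3 against 63.2 CPM. Ahr was higher in iILC1 than in iNK by 1.44 (SE 0.239, edgeR adjusted p = 0.000249) on the log2 scale in control mice and by 2.14 (SE 0.207, adjusted p = 6.41e-09) in cKO mice. The genotype estimates were −0.18 (95% interval −0.64 to 0.27) in iNK and 0.51 (SE 0.216, adjusted p = 0.982) in iILC1. Of 5 genes known to be induced through AHR, none was called by edgeR in any comparison, none had an unadjusted p under 0.05, and DESeq2 called none. Cyp1a1, the best known AHR target, averaged 0.755, 0.674, 2.21 and 1.36 CPM in the 4 groups.

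Bcl11b (ENSMUSG00000048251; chromosome 12, 107910403 to 108003602, minus strand), a zinc-finger factor of T cell and ILC2 commitment, had the largest cell type estimates of the 9 genes in both genotypes. It read 8.59, 9.50 and 9.60 CPM in control iNK, 9.64, 6.38, 2.86 and 4.43 CPM in cKO iNK, 47.4, 25.0 and 41.2 CPM in control iILC1, and 80.5, 43.3, 30.7 and 27.6 CPM in cKO iILC1. Every iILC1 library was above every iNK library, and the genotypes overlapped in both cell types. The log2 fold change of iILC1 over iNK was 2.03 (SE 0.383, edgeR adjusted p = 0.00169) in control and 2.99 (SE 0.341, adjusted p = 6.20e-07) in cKO mice. Genotype estimates were −0.68 (95% interval −1.44 to 0.08) in iNK and 0.27 (95% interval −0.41 to 0.96) in iILC1, the latter −0.16 without cKO iILC1 replicate 1. That replicate was the highest of its group for 8 of the 9 genes and had the fewest background reads of the iILC1 libraries (1539 CPM).

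Since BCL11B, RORA and GATA3 are also factors of T cells and ILC2s, and AHR of ILC3s, markers of those cells are given beside them. Of 12 T cell markers tested, 5 were higher in iILC1 than in iNK in control mice, led by Cd3e (log2 fold change 4.27), a chain of the CD3 complex, and 3 in cKO mice, again led by Cd3e (2.94). Of all genes tested, edgeR called 0.945% higher in iILC1 in control mice and 1.75% in cKO mice. The same shares stand beside the ILC2 and ILC3 counts by cell type below. Cd3e averaged 3.31, 3.66, 64.0 and 27.5 CPM in the 4 groups. Summed T cell markers lay at 605 to 917, 663 to 839, 721 to 1173 and 620.3 to 1131 CPM in the 4 groups. Trbc1 held the largest part of these sums, with means of 443, 455, 340 and 384 CPM. Of 9 ILC2 markers tested, Arg1, Il2ra and Hpgds were higher in control iILC1, and Arg1, Il2ra and Icos in cKO iILC1. Arg1, which encodes arginase 1, averaged 3.74, 5.43, 32.1 and 82.8 CPM in the 4 groups. Il1rl1, the IL-33 receptor that defines many ILC2s, averaged 15.5, 15.8, 15.7 and 18.8 CPM. Summed ILC2 markers lay at 84.8 to 88.9, 74.9 to 109, 149 to 189 and 224 to 370.02 CPM. No T cell or ILC2 marker was at 0 in any group, and edgeR called no ILC2 marker for genotype, with 3 unadjusted p-values under 0.05 and 1 DESeq2 call (Arg1) in iILC1 and 1 and 0 in iNK. The shares over all genes were 4.46% and 0.17% in iILC1 and 7.93% and 1.09% in iNK. Of 7 ILC3 markers tested, 2 were higher in control iILC1 and 3 in cKO iILC1, Lta (lymphotoxin alpha) in both, and the summed list lay at 11.7 to 17.9, 20.3 to 29.7, 43.05 to 49.1 and 45.3 to 66.3 CPM in the 4 groups. The part of such cells in the levels of Bcl11b, Rora, Ahr and Gata3 was not tested.

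Of 14 paralogs and partners of the 9 genes, none was called for genotype by edgeR or DESeq2, with 2 unadjusted edgeR p-values under 0.05 in iNK and 1 in iILC1. Such p-values made up 7.93% and 4.46% over all genes. Between cell types, edgeR called 2 of 14 in control (0.945% of all genes higher) and 2 in cKO mice (1.75%), all higher in iILC1. Among these, Rorb was called in control mice (0.73, edgeR adjusted p = 0.0484, lost in 9 alternatives) and Zbtb7b, a relative of Zbtb16, in cKO mice (1.45, adjusted p = 9.65e-05).

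Among 23 other regulators of early ILC and NK cells, none was called for genotype by edgeR in either cell type, with 4 unadjusted p-values under 0.05 in each, and DESeq2 called 1 in iNK and none in iILC1. The shares over all genes were 7.93% and 1.09% in iNK and 4.46% and 0.17% in iILC1. By cell type, 3 were higher and 5 lower in control iILC1, and 3 were higher and 7 lower in cKO iILC1. For these tests, 0.945% of all genes were called higher and 3.16% lower in control mice, and 1.75% and 1.66% in cKO mice. Eomes was lower (−2.47 and −3.09 in control and cKO mice), as was Myb, a progenitor factor (−2.32 and −2.50). Zfp683, which encodes the residency factor HOBIT, was higher (2.83 and 4.45), as was Maf (1.49 and 2.68). Prdm1 was lower (−1.44 and −0.92). Tbx21, the T-box factor shared by NK cells and ILC1s, averaged 528, 435, 462 and 655 CPM in the 4 groups and passed edgeR's test in no comparison, though with the background covariate it was higher in cKO iILC1 than in cKO iNK (0.74, adjusted p = 0.000285). Nfil3, which acts upstream of ILC commitment, averaged 79.2, 51.5, 44.6 and 35.8 CPM and also passed in none. It was called lower in control iILC1 by DESeq2 (adjusted p = 0.0404), in a fit of those groups alone (−0.76, adjusted p = 0.0261) and without control iNK replicate 3 (−1.03, adjusted p = 0.0356).

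Of 10 surface proteins of ILC progenitors, Il7r rose in cKO iNK, where it averaged 22.3 ± 5.60 CPM (SD, n = 4) against 8.37 ± 2.59 CPM (SD, n = 3) in controls, at a log2 fold change of 1.42 (SE 0.270, edgeR adjusted p = 0.00565). Il7r encodes the IL-7Ra of the sort gates, so its difference between the cell types was set by the sort. Without control iNK replicate 1 its adjusted p was 0.0666, and without control iNK replicate 2 it was 0.0580. By cell type, 2 of the 10 were higher in control iILC1, and 3 were higher and 1 lower in cKO iILC1, with Cxcr6 higher in both (5.09 and 6.19). The shares of all genes were 0.945% higher in control iILC1, and 1.75% higher and 1.66% lower in cKO iILC1. For genotype in iNK, 0.148% were higher.

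For each gene, the transcripts with the most similar profile over the 14 libraries were taken from 10316 genes with a mean of at least 10 CPM. The libraries come from 4 groups and share the scaling, so these correlations describe the profile across groups. Rora and Ahr had Klrb1b, a lectin-like receptor gene, among the first 2 (r = 0.968 and 0.981), after Gpr183, an oxysterol receptor gene (r = 0.975), for Rora and Ahcyl2 (r = 0.984) for Ahr. Bcl11b was closest to Tubb6 (r = 0.974) and Gna15 (r = 0.972), Tcf7 to Itgb1 (r = 0.973) and Slc26a11 (r = 0.970), and Id2 to Gbp4 (r = 0.970) and Klrb1f (r = 0.966). Gata3 was closest to Rmnd5b (r = 0.962) and Dusp6 (r = 0.956), Tox to Tapt1 (r = 0.946) and Cog3 (r = 0.945), and Zbtb16 to Rsrc1 (r = 0.931) and Znrf1 (r = 0.923).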

How the data were processed

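The deposited values were unnormalised read counts for each Ensembl gene, as the authors' count table gives them. The submitters' processing notes list HISAT2 2.1.0 and mm10, Trimmomatic 0.33 and, for counting, Subread 1.6.5. Which annotation release and strand setting the authors used is not given in the sources used here. Of 46078 identifiers, 45143 (97.97%) matched a symbol. Genes were kept by filterByExpr (minimum count 10, minimum total 15) and scaled by TMM. edgeR 4.0.16 (R 4.3.3; robust quasi-likelihood F test, two-sided) was fitted to all 14 libraries with 4 group means, 10 residual degrees of freedom, and Benjamini-Hochberg adjustment over 26990 genes at 0.05. The common biological coefficient of variation was 30%. SEs came from the F statistic and 95% intervals from the test's degrees of freedom. The code was tested on simulated data.

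Replicates differed by more than sampling noise in all 18 pairs within groups (chi-square per degree of freedom 4.97 to 27.1). Total counts ran from 3512796 to 12572326, and members with few reads (Id3, Bcl11b in iNK) are the least precise. Alternatives were RLE scaling, DESeq2 1.42.0, no filter, a mean of at least 5 CPM, only the groups compared, a replicate block, a background covariate, fits without robust moderation (added after the data were seen) and leaving out libraries. The members, gene lists, tests and alternatives were chosen with earlier results of these data known. All 9 members are named in each comparison. From the other lists, called genes are named, up to 4 per list and comparison with the smallest p, with Tbx21, Eomes and Nfil3; for each member, the 2 genes with the highest Pearson correlation of log2 CPM (prior count 2), leaving out predicted genes, pseudogenes and antigen receptor segments. Il1rl1, Cyp1a1, Trbc1 and Ighm were named after their values were seen. Promoters came from RefSeq (GRCm38.p6). Some genes of these lists are counted but not reported by name here.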

Additional observations from a re-analysis of the deposited data

Results flagged for a closer look

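In the cKO iILC1 group (n = 4), 1 library stood apart from the other 3 for Rora, Tcf7 and Tox. In each case it was replicate 1, the library with the fewest background reads of that group: 389 CPM for Rora, 576 CPM for Tcf7 and 100.2 CPM for Tox. The gap to the nearest library took 0.836, 0.851 and 0.930 of the whole range. For Ahr in cKO iNK (n = 4), replicate 1 was low at 15.3 CPM, and its gap took 0.874 of the range. Each of these is above Dixon's 95% critical value for 4 samples. In all, 18 groups of 4 were looked at, and chance passes that value in about 1 in 20.

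The genotype effect on Id3 differed between the cell types, with an interaction of -2.46 on the log2 scale (effect in iILC1 minus effect in iNK; edgeR adjusted p = 0.0375). Id3 was higher in cKO in 4 of 4 iNK libraries than in any control iNK library, while the iILC1 genotypes overlapped.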

How the results depend on the processing

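The calls of Rora, Ahr and Bcl11b between cell types and of Id3 by genotype in iNK held in every alternative run. For genotype in iILC1, the count of members called went from 0 to 1 (Rora) with no filter, the filter at 5 CPM, the replicate block, the background covariate and DESeq2, and it was 0 to 1 when 1 library was left out. For genotype in iNK it went from 1 to 3 with the filter at 5 CPM (Id2, Id3, Zbtb16) and to 4 with the covariate (also Tcf7). For the interaction it went from 1 to 2 with the covariate (Id2, Id3), and it was 0 to 1 when 1 library was left out.

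The samples were taken to share only a number: same-numbered libraries correlated at 0.121 on average, with 9 of 19 pairs over 0.1, and others at -0.0423, with 12 of 54 over 0.1; 6 of 14 libraries correlated best with their own number. The replicate block called 1, 1, 4, 8 and 1 members for genotype in iNK, genotype in iILC1, cell type in control, cell type in cKO and the interaction, adding Rora (genotype in iILC1), Tcf7 (cell type in control) and Gata3 and Tox (cell type in cKO); Nfil3 was added in control.

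Estimates near 0 changed sign, and the cause was not tested; ranges are those over fits that left out 1 library. Bcl11b by genotype in iILC1 was -0.0086 with the covariate and -0.15 without both libraries of least background (range -0.16 to 0.47). Tox in that comparison was -0.0060 without both (-0.011 to 0.23), and Id3 ran from -0.36 to 0.047. For cell type in control, Id2 was -0.014 with RLE scaling and DESeq2 and -0.012 with no filter, but 0.52 with the covariate (-0.18 to 0.17). Gata3 ran from -0.10 to 0.38 and Id3 from -0.15 to 0.41. Zbtb16 was 0.14 with the filter at 5 CPM, 0.017 with only the groups compared and 0.24 with the covariate (-0.28 to 0.055), and its interaction ran from -0.27 to 0.12. Tbx21 was 0.42 with the covariate and 0.019 without both (-0.49 to 0.025). Eomes by genotype in iNK ran from -0.079 to 0.31.

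Over all genes, 110, 13, 1109, 920 and 21 were called in the 5 comparisons. The alternatives gave 62 (without cKO iNK replicate 1) to 398 (covariate), 4 (without control iILC1 replicate 3) to 57 (covariate), 400 (without control iILC1 replicate 2) to 2328 (replicate block), 716 to 1685 and 9 (without control iILC1 replicate 3) to 37 (DESeq2). The share of higher calls was 36.4% in iNK and 23.8% with DESeq2, 46.2% and 56.5% in iILC1, 28.6% and 48.6% in the interaction, and 23% between cell types in control mice against 44.9% with the covariate, which moved the median of all genes there from 0.16 to 0.00.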
